A study of Mus musculus with 6 samples.

Results

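The histone genes of the 4 clusters Hist1 to Hist4 were examined in mouse bone marrow-derived macrophages (BMDMs) stimulated with Pam3CSK4 with or without dopamine (DA). Members were the genes whose symbol starts with Hist1h, Hist2h, Hist3h or Hist4h, and 57 of the 17951 genes listed in at least 1 library met this rule. GENCODE vM21 annotates 2 of them, Hist1h2al and Hist3h2bb-ps, as processed pseudogenes. Of the 57, 16 were listed in all 6 libraries and 18 in only 1. The cells were grown for 4 to 6 days from the marrow of 8-week-old wild-type C57BL/6 mice, with 10% serum and 10% medium conditioned by L929 cells, which secrete macrophage colony-stimulating factor. The cells behind each of the 6 libraries were given Pam3CSK4, a synthetic lipopeptide agonist of Toll-like receptor 2, for 6 h. For 3 libraries DA, a catecholamine neurotransmitter, was given 2 h before the lipopeptide, and the other 3 received no DA. Resting cells and DA without the lipopeptide were not analysed here, so the Pam3CSK4 group is a stimulated level. The labels do not say whether replicates came from separate mice or cultures, so the p-values measure only the spread between these libraries, which may be technical.

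Histones package DNA into nucleosomes, in which pairs of H2A, H2B, H3 and H4 form the core and H1 binds the linker. The clustered genes supply most of this protein during S phase, and their mRNAs are unusual in ending in a conserved stem-loop, bound by SLBP (stem-loop binding protein), in place of a poly(A) tail. Some of these genes can also give longer polyadenylated transcripts, above all in cells that have left the cell cycle. Protocols that select poly(A) RNA recover few of the transcripts that end in the stem-loop, and whether such a selection was used is not given in the sources used here.

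Those ends are shown first because, had poly(A) RNA been selected, they would bear on what a library can hold of these genes. The stem-loop was searched on the transcript strand of GENCODE vM21 transcripts (GRCm38) as a motif of 16 letters: GG, any 2 letters, CTTTT, any letter, AG, any 2 letters, CC. It was found in 124 of 141767 transcripts (0.087%), 46 of them from Hist1 to Hist4 genes, and in 39 of the 57 members. The core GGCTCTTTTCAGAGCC was found in 23 of those 39. In the lines below the core is in capitals, and each site lies in the 3′ UTR of the only transcript annotated for its gene. The 4 genes shown are the most abundant member, an H2A gene, then another H2A gene, an H1 gene, and an H4 gene whose core differs in its letters.
Hist2h2aa1, chr3:96246027-96246052, plus strand: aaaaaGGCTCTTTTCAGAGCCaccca
Hist3h2a, chr11:58955167-58955192, plus strand: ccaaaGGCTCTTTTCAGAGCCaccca
Hist1h1c, chr13:23739507-23739532, plus strand: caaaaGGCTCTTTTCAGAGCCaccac
Hist1h4i, chr13:22040961-22040986, minus strand: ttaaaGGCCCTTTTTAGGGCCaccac
The core started 58 bases after the stop codon in Hist2h2aa1, 41 in Hist3h2a, 24 in Hist1h1c and 30 in Hist1h4i. No match was found in 18 members, of which 11 have no annotated 3′ UTR, so no end was there to search. The other 7 have a 3′ UTR without these letters, among them Hist1h2bc, Hist1h2bq, Hist1h2br and Hist2h2be, which are described below. The poly(A) signal AATAAA lay in the last 50 bases of a transcript for 13 of the 57 members, and for 40.5% of all protein-coding transcripts.

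Depth was nearly equal, with 21337932 to 21518425 expected counts per library. The macrophage markers summed to 28040 to 28160 CPM (counts per 1e+06 counts) with Pam3CSK4 and 21440 to 21810 with DA, and 1 of the 8 was higher and 5 lower with DA. The neutrophil list summed to 216.9 to 271.1 CPM with Pam3CSK4 and 576 to 599.4 with DA, a gap of which S100a8 made up most (51.6 to 76.7 CPM against 394 to 422). Of its 7 tested genes 1 was higher and 2 lower. S100a9 lay at 82.7 to 99.1 CPM with Pam3CSK4 and 96.4 to 101.5 with DA, Ngp at 62.4 to 71.4 and 59.5 to 62.4, and Camp, Ltf, Mpo, Elane and Ly6g at 0.13 to 10.5. B cell, T and NK cell and erythroid markers each summed to at most 1.4 CPM, with Pax5, Cd3g, Hbb-bs and Hbb-bt at 0. Stromal markers summed to 953.8 to 1007 CPM and 819.1 to 895.3 with DA, and endothelial markers to at most 9.38. The part of these shifts in the histone values was not tested.

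Histone RNA was a minor part of these libraries, and its summed level was larger with DA. The 57 genes together held 1697, 1757 and 1722 expected counts in the 3 Pam3CSK4 libraries and 2959, 3405 and 3075 in the 3 DA libraries. Every DA library was above every Pam3CSK4 library. In CPM this is 83.4 ± 1.59 with Pam3CSK4 and 142.4 ± 9.67 with DA (mean ± SD, n = 3 each), a ratio of 1.71. On the scale of FPKM, which divides by transcript length, the sums were 141.1 ± 2.16 and 252.9 ± 18.2, a ratio of 1.79. In bulk RNA such as this, more cells that hold a transcript and more of it per cell cannot be told apart.

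All 5 histone classes had a larger mean with DA, and the size differed. The linker histone H1 had the smallest ratio, 1.39, with 13.7 ± 2.01 CPM under Pam3CSK4 and 19.0 ± 2.40 under DA. Summed H2A, the class with 55.3% of histone counts under Pam3CSK4 and 58.0% under DA, went from 46.2 ± 2.80 to 82.6 ± 4.14 CPM, a ratio of 1.79. H2B went from 19.2 ± 1.69 to 32.6 ± 4.61 CPM, a ratio of 1.70. The nucleosome core also holds H3 and H4, and these were the scarcest classes. H3 held 67, 65 and 54 counts with Pam3CSK4 and 134, 137 and 122 with DA, a ratio of 1.98 in CPM. H4 held 32, 22 and 33 counts against 34, 62 and 53, a ratio of 1.60. The counts of the groups did not overlap in any of the 5 classes, but in H4 the lowest DA library exceeded the highest Pam3CSK4 library by 1 count, and in CPM the H4 groups overlapped.

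By cluster, the 44 listed genes of Hist1 on chromosome 13 went from 42.6 ± 1.52 to 61.7 ± 8.21 CPM, a ratio of 1.45. The 9 genes of Hist2 on chromosome 3 went from 35.7 ± 1.59 to 69.2 ± 2.73 CPM, a ratio of 1.94. The 3 genes of Hist3 on chromosome 11 went from 5.14 ± 0.606 to 11.5 ± 0.907 CPM, a ratio of 2.24, nearly all of it Hist3h2a. The single Hist4 gene on chromosome 6 had 0 or 1 count in each library. The shares of the clusters within histone RNA differed with them. Hist1 genes held 50.8%, 52.4% and 49.9% of histone counts with Pam3CSK4 and 41.5%, 46.4% and 41.7% with DA. Hist2 genes held 42.0%, 41.8% and 44.5% against 49.2%, 46.5% and 50.3%, so the groups did not overlap in either share.

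**Figure D1:**
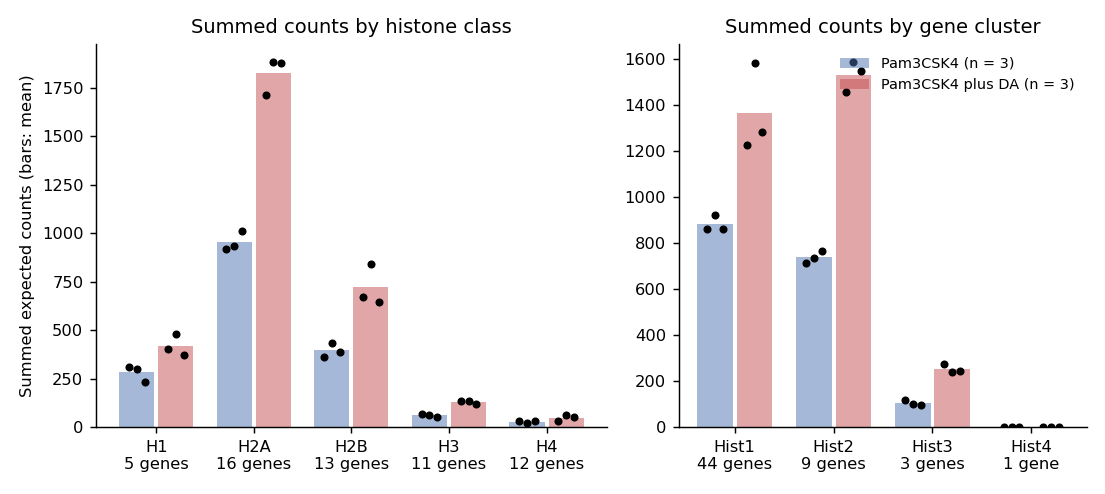
Summed expected counts of the 57 histone genes by class (left) and by cluster (right). Bars are means of 3 libraries and points are libraries, on an axis that starts at 0. Hist1 and Hist2 are of similar height with DA, and H2A is the tallest class in both groups.

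These totals rested on few genes. The 4 most abundant members held 79.9% of all histone counts. Only 13 members passed edgeR's filter on low counts, and they carried 97.3% of the counts. Of the 44 that did not pass, 36 belong to Hist1, 5 to Hist2, 2 to Hist3 and 1 to Hist4, and 41 of them had at most 10 counts in every library. The genes that did not pass include 11 of 12 H4 genes and 10 of 11 H3 genes. Together the 44 held 36.8 to 48.9 counts with Pam3CSK4 and 70.0 to 111.7 with DA. What follows on single genes therefore covers 13 members and not the whole set. Hist1h2bq and Hist1h2br passed the filter through their DA libraries alone, so they had to differ, and with equal counts they are 1 measurement in 2 rows. The counts below include both, and the counts without them follow.

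Of the 13 tested members, 8 were higher with DA, 1 was lower and 4 did not pass the threshold (edgeR's quasi-likelihood test, Benjamini-Hochberg adjusted p under 0.05). Calls in either direction made up 69.2% of the 13, near the 64.4% of all tested genes. The share of higher calls was 61.5%, where 32.6% of the 12390 genes tested were higher and 31.8% lower. With upper-quartile factors the genes split into 5055 higher and 3138 lower, against 4043 and 3938, and 9 members were higher. At least 2-fold higher were 5 members, against 7.34% of all tested genes, and at least 2-fold lower was 1, against 7.48%. All DA libraries lay above all Pam3CSK4 libraries for 8 members, against 34.7% of tested genes, and all below for 0, against 34% of tested genes. The median log2 fold change was 0.65 over the 13 members and 0.02 over all tested genes. Higher calls came from 4 of 5 tested H2B genes, 2 of 5 H2A genes, and the only tested genes of H1 and H3, while the only tested H4 gene did not pass. Without Hist1h2bq and Hist1h2br, 6 of 11 members were higher (54.5%), 7 were called in either direction (63.6%) and 3 were at least 2-fold higher. The DA libraries lay above the others for the same 6, and the median log2 fold change was 0.52; 2 of the 3 H2B genes left were higher.

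**Figure D2:**
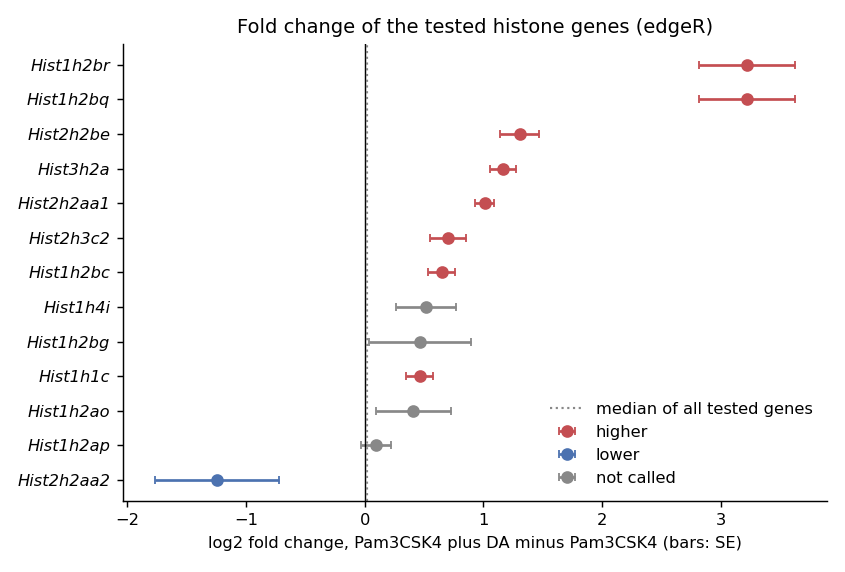
Fitted log2 fold change, DA minus Pam3CSK4, of the 13 tested histone genes, with bars for the standard error and colours for the call. The dotted line is the median of all tested genes, 0.02. Hist1h2bq and Hist1h2br lie far to the right at 3.22 and Hist2h2aa2 alone lies left of 0.

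Hist2h2aa1, a core H2A gene at chr3:96245497-96246082 on the plus strand, was the most abundant member and held 39.4% of histone counts. It had 537, 617 and 673 counts with Pam3CSK4 and 1229, 1358 and 1345 with DA. The DA libraries were all far above the others. The gene was 2.02-fold higher (log2 fold change 1.01, SE 0.08, adjusted p = 6.84e-08). In FPKM, without the TMM factors, it had 53.8 ± 5.99 with Pam3CSK4 and 115.4 ± 5.96 with DA (n = 3 each). Its neighbour Hist2h2aa2, an H2A gene at chr3:96239749-96240276 on the minus strand, shares all of its 50-base words with other genes, so reads can be split between the copies in different ways. Hist2h2aa2 had 83.9, 27.1 and 14.0 counts with Pam3CSK4 and 28.0, 14.0 and 14.0 with DA, and the groups overlapped. It was the only lower call (log2 fold change -1.25, SE 0.52, adjusted p = 0.0496). Without Pam3CSK4 replicate 1 its log2 fold change was -0.23 with an adjusted p of 0.619. Summed, the pair had 621, 644 and 687 counts against 1257, 1372 and 1359 (log2 fold change 0.94, SE 0.07, edgeR adjusted p = 1.6e-08). The sum was higher with DA whichever copy of the pair the reads belong to. Reads shared with genes outside the pair are not settled by it. Hist1h2al, for example, shares 65.5% of its 50-base words with each copy. Long noncoding genes annotated over Hist2h2aa1 on both strands share its exon bases, and whether counting used strand is not stated.

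Hist3h2a encodes an H2A and lies apart from the large clusters, at chr11:58954685-58956830 on the plus strand. It had 120, 103 and 95.1 counts with Pam3CSK4 and 276, 240 and 245 with DA. The lowest DA library was far above the highest Pam3CSK4 library. The gene was 2.24-fold higher (log2 fold change 1.16, SE 0.11, adjusted p = 4.08e-07). In FPKM, without the TMM factors, it had 10.3 ± 1.25 with Pam3CSK4 and 24.6 ± 1.96 with DA. Its annotated transcript shares 708 exon bases on the same strand with Trim17, a gene that did not pass the filter.

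Hist1h2bc, an H2B gene at chr13:23684199-23692908 on the plus strand, was the most abundant H2B member, and none of its annotated transcripts holds the stem-loop letters. It had 318, 383 and 326 counts with Pam3CSK4 and 534, 696 and 491 with DA. The gene was 1.57-fold higher (log2 fold change 0.65, SE 0.12, adjusted p = 0.000208). Hist1h1c, which encodes a linker histone that many resting tissues express, lies at chr13:23738808-23740367 on the plus strand. It had 311, 301 and 230 counts with Pam3CSK4 and 400, 474 and 367 with DA. This was the smallest of the higher calls, 1.38-fold (log2 fold change 0.47, SE 0.11, adjusted p = 0.00252). Neither gene's groups overlapped, and DA replicate 2 was the highest library for both.

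Hist1h2ap, an H2A gene at chr13:21833026-21833507 on the minus strand, was the one abundant member without a call. It had 144, 137 and 160 counts with Pam3CSK4 and 135, 183 and 184 with DA. The lowest library of the 6 was a DA library, and the groups overlapped (log2 fold change 0.09, SE 0.13, adjusted p = 0.542). Per length, Hist1h2ap at 16.2 ± 1.30 FPKM stood above Hist3h2a under Pam3CSK4, and below it under DA at 18.4 ± 3.08 FPKM. In both groups Hist2h2aa1 was first in FPKM, Hist1h2bc second (22.9 ± 2.24 and 38.0 ± 7.20) and Hist1h1c next (18.7 ± 2.97 and 27.5 ± 3.72). Hist1h1c and Hist1h2ap differed by less than 1 SD of Hist1h1c under Pam3CSK4.

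**Figure D3:**
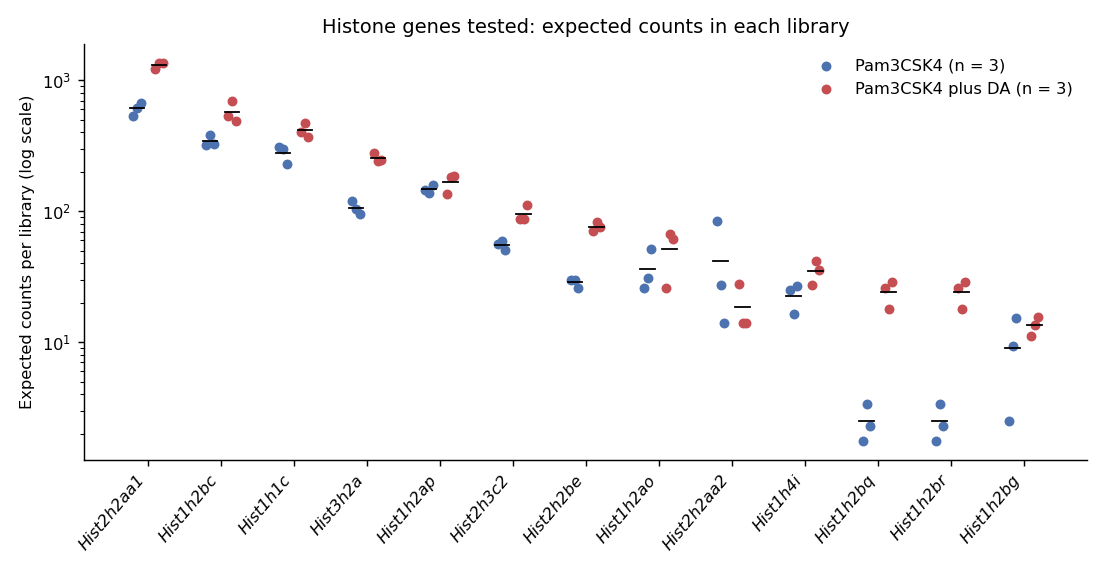
Expected counts of the 13 tested histone genes in each of the 6 libraries, on a log scale. Points are libraries and short lines are means of 3. The DA points stand clear of the Pam3CSK4 points in 8 genes, and the scale spans from under 2 counts to 1358.

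The other 8 tested genes averaged under 5 CPM, and those named here were chosen after their values were seen. Hist2h2be, an H2B gene at chr3:96221119-96223738 on the plus strand, shares none of its 50-base words with another gene of GENCODE vM21. Its expected counts were still not whole, and how its reads were split was not tested. Its long 3′ UTR of 2192 bases holds no stem-loop letters and ends near an AATAAA. It had 30.1, 29.6 and 26.0 counts with Pam3CSK4 and 70.5, 82.0 and 76.1 with DA, and was 2.48-fold higher (log2 fold change 1.31, SE 0.16, adjusted p = 8.04e-06). The replicates of each group lay close together, far from the other group.

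Hist2h3c2, the only H3 gene tested, had 56.3, 59.2 and 50.4 counts with Pam3CSK4 and 86.6, 87.9 and 112 with DA (log2 fold change 0.70, SE 0.15, adjusted p = 0.000994). Its near copy Hist2h3c1 did not pass the filter, was at 0 in all 3 Pam3CSK4 libraries and DA replicate 3, and had 41.8 counts in each of the other DA libraries. Summed with the related Hist2h3b, the H3 genes had 61, 59 and 50 counts against 128, 130 and 112 (log2 fold change 1.03, SE 0.13, edgeR adjusted p = 1.02e-05). The summed counts varied less among the DA libraries than those of Hist2h3c2 or Hist2h3c1 alone. Hist1h4i, an H4 gene, had 24.8, 16.4 and 26.8 counts against 27.2, 41.9 and 35.4 (log2 fold change 0.52, SE 0.25, adjusted p = 0.0868). It did not pass here, but did with upper-quartile factors (0.63, adjusted p = 0.0407), with limma on log2(FPKM + 1) and log2(FPKM + 0.1) with the filter (adjusted p = 0.0209 and 0.0236), and without DA replicate 1 (adjusted p = 0.0443). Over the other alternatives its adjusted p was 0.0673 to 0.321. The remaining uncalled genes, Hist1h2ao and Hist1h2bg, had 2.52 to 67.0 counts and overlapping groups.

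The largest fold change belonged to 2 H2B genes, Hist1h2bq and Hist1h2br. They lie at chr13:21806612-21810197 on the minus strand and chr13:21833743-21837530 on the plus strand, and 97.3% of the 50-base words of the shorter are shared. The authors' counts were equal for both in all 6 libraries, at 1.76, 3.39 and 2.30 with Pam3CSK4 and 26.0, 17.9 and 28.7 with DA. Summed, they had 4, 7 and 5 counts against 52, 36 and 57 after rounding (log2 fold change 3.06, SE 0.32). Since they passed the filter through the DA libraries alone, the values describe these libraries and no p is given. The difference starts from a handful of reads, so its size is loosely set. On log2(FPKM + 1), which damps low values, limma gave a log2 fold change of 0.51 for each.

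Each of these H2B genes faces an H2A gene across a short shared promoter, as H2A and H2B genes often do. The RefSeq start sites of Hist1h2bq and Hist1h2ao are 168 bases apart, and those of Hist1h2ap and Hist1h2br 268 bases. GENCODE vM21 starts Hist1h2ao further from Hist1h2bq, at chr13:21810465 against 21810367 in RefSeq. The distance of 168 bases thus depends on the annotation. The H2A partners, Hist1h2ao and Hist1h2ap, are also near copies and together had 170, 168 and 211 counts with Pam3CSK4 and 160, 250 and 246 with DA. These groups overlapped (summed log2 fold change 0.16, SE 0.15, edgeR adjusted p = 0.367). For every 100 counts of the H2A partners the H2B genes had 2.07, 4.04 and 2.18 counts with Pam3CSK4 and 32.4, 14.3 and 23.3 with DA. Every DA library had a larger ratio, and since the pair was chosen for its fold change, this is a description with no test.

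**Figure D4:**
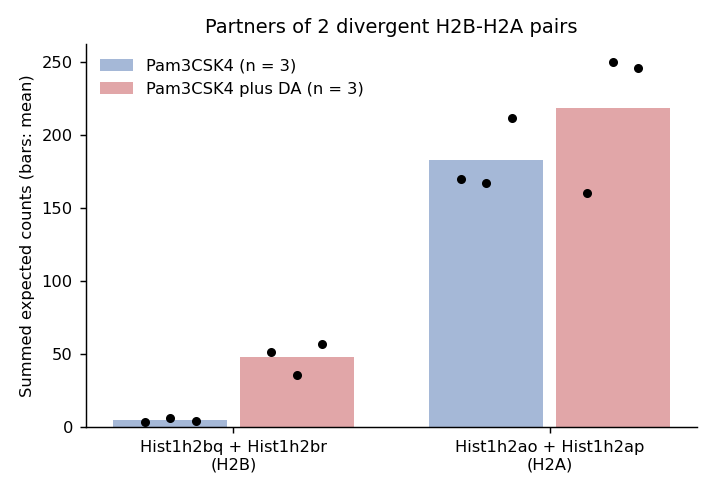
Summed expected counts of the H2B genes Hist1h2bq and Hist1h2br (left) and of the H2A genes that face them, Hist1h2ao and Hist1h2ap (right). Bars are means of 3 libraries and points are libraries. The H2B sum goes from 3.52 to 6.78 counts to 35.8 to 57.3 with DA, and the H2A groups overlap.

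Promoters are shown for 3 loci that were higher with DA, since clustered histone genes are switched on together in S phase through shared promoter elements. RefSeq windows (GRCm38.p6) of 300 bases, from 250 before to 50 after the start, were matched for 50 of the 57 members, 51 windows in all. CCAAT, the element bound by NF-Y, was found on either strand in 84.3% of these and in 37.4% of all 32851 windows. TATAAA, a form of the TATA box, was found in 58.8% and in 13.6%. It too was counted on either strand and anywhere in the window, so these are not shares of promoters with a placed TATA box. Both are shown in capitals, in the orientation of the gene, where ATTGG is CCAAT on the other strand.
Hist2h2aa1, chr3:96245247-96245546, plus strand: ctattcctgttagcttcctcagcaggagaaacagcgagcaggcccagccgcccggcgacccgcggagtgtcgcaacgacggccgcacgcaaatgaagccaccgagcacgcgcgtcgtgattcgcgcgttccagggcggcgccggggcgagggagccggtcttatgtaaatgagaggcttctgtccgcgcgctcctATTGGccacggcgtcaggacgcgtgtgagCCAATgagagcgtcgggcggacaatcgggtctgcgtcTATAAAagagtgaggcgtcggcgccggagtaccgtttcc
Hist3h2a, chr11:58954435-58954734, plus strand: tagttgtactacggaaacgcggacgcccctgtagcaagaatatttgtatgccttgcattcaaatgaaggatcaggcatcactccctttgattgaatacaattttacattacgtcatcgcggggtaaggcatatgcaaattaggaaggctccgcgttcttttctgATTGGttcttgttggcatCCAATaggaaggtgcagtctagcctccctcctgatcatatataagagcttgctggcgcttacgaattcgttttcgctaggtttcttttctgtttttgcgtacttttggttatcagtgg
Hist1h2bq, chr13:21810150-21810449, minus strand: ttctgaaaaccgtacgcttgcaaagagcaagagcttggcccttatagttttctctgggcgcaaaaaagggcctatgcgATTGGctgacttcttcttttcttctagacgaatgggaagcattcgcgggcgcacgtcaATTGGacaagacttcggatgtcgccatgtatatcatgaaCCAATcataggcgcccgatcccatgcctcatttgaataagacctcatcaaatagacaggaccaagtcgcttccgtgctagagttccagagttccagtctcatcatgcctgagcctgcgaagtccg
The windows hold 2, 2 and 3 copies of CCAAT, and TATAAA is present once in that of Hist2h2aa1, where it begins 11 bases after the annotated start and not before it. The Hist1h2br window equals that of Hist1h2bq in 300 of 300 bases. These matches are letters in a window and not sites of binding, which was not measured.

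Higher calls were found among members with and without the stem-loop letters, in 4 of 9 and in 4 of 4 tested genes, where 32.6% of all tested genes were higher. Without Hist1h2bq and Hist1h2br the second count is 2 of 2, too few to read. Summed over all members, genes with the motif went from 64.8 ± 1.26 to 110.3 ± 5.77 CPM, a ratio of 1.70. Genes without it went from 18.6 ± 1.88 to 32.2 ± 4.58 CPM, a ratio of 1.73. Hist1h2bc alone held 16.5 and 26.0 CPM of this, so the second sum is mostly 1 gene. The ratios lay close together, and their difference was not tested. AATAAA near a transcript end was annotated for 5 of 13 tested members and for 8 of the 44 not tested. All 5 were higher, or 3 of 3 without Hist1h2bq and Hist1h2br, too few to read. Of the 8 tested members without AATAAA 3 were higher, where 32.6% of all tested genes were. Of the members with AATAAA, Hist1h1c and Hist3h2a had lengths of 725 and 508 bases in the authors' files. Their GENCODE transcripts, at whose ends AATAAA was searched for, have 1560 and 2146. Hist1h2bc, counted here as without the stem-loop letters, had 717.64 bases in the authors' data and 1156 in GENCODE. The transcripts searched may thus differ from those that were counted. What the deposited counts hold of the longer forms was not tested.

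The related lists held calls in both directions, as did all tested genes, of which 32.6% were higher and 31.8% lower. Of 17 tested genes of histone pre-mRNA processing and decay, 3 were higher and 5 lower, with a median log2 fold change of 0.01, and with upper-quartile factors 6 were higher and 2 lower. Slbp itself had 19.4 ± 0.811 CPM with Pam3CSK4 and 19.5 ± 1.19 with DA (log2 fold change 0.01, SE 0.08, adjusted p = 0.916). Npat, an activator of histone transcription and a substrate of cyclin E with CDK2, had a log2 fold change of 0.09 (SE 0.14, adjusted p = 0.566). Of the U7 snRNP proteins, which direct cleavage after the stem-loop, Lsm10 was higher (0.34, adjusted p = 0.00182) and Lsm11 lower (-0.68, adjusted p = 8.69e-06). Srrt, a partner of the cap-binding complex, was higher (0.46) and the cleavage factor gene Cstf2 lower (-1.42).

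Replacement histones, most of which can be made outside S phase from polyadenylated mRNAs, split into 4 higher and 5 lower among 11 tested, a median of -0.11. This median was 0.01 with upper-quartile factors, which gave 5 higher and 2 lower. H2afx, the variant phosphorylated at DNA breaks, was higher (log2 fold change 0.55, adjusted p = 2.63e-05), as was H2afj (0.38). H3f3b, an H3.3 gene, was lower (-0.31, adjusted p = 0.000103), as was macroH2A gene H2afy (-0.33). The calls for H3f3a (-0.12, adjusted p = 0.032), H2afz (-0.27, adjusted p = 0.00557) and H1f0 (-0.30, adjusted p = 0.0206) were all lost with upper-quartile factors, and the groups of H1f0 overlapped.

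Histone chaperones, which carry histones to DNA, had 9 higher and 3 lower of 18, a median log2 fold change of 0.12. Nasp, a chaperone of H1 and of H3 with H4, was higher by 1.42 (SE 0.07, adjusted p = 3.72e-10), and Nap1l1, a chaperone of H2A with H2B, by 0.58. Daxx, which deposits H3.3 (-0.51), and Supt16, a subunit of FACT (-0.39), were lower. S-phase genes had 12 higher and 8 lower of 30, a median of 0.05. Pcna, the polymerase clamp, was higher by 0.72 (adjusted p = 1.51e-08), and E2f2, an S-phase transcription factor, by 2.00. Mki67, a marker of cycling cells, was lower (-1.49, SE 0.06, adjusted p = 7.35e-11), as was Cdc25a (-0.62), a phosphatase that opens S phase. Ccne1, cyclin E1, did not pass the threshold (0.10, adjusted p = 0.657).

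**Figure D5:**
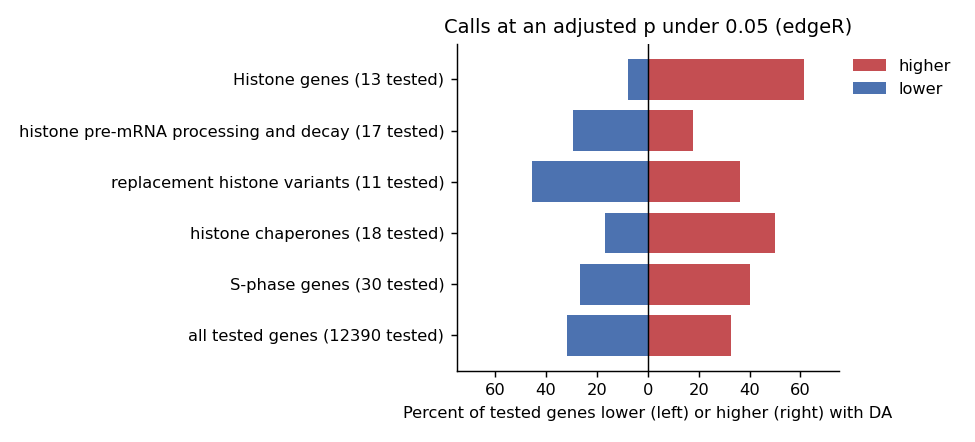
Percent of tested genes higher (right) or lower (left) with DA at an adjusted p under 0.05 for the histone genes, 4 related lists and all genes. Of the histone genes 61.5% are higher, or 54.5% without Hist1h2bq and Hist1h2br, which had to differ, against 32.6% of all genes.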

How the data were processed

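Total RNA of 6 BMDM libraries was sequenced on a BGISEQ-500, per the labels. Groups and replicate numbers were taken from the sample titles. The source field spells the ligand with another final digit in the DA libraries, and the titles were followed. Per the file headers, the authors' files hold expected counts, the estimated reads of each gene, not normalized, and FPKM, scaled by the authors for transcript length and library size. Bowtie2 2.2.5 and the build GRCm38.p5 are named in the submitters' processing notes, and the sources used here do not give the quantifier. No gene below 0.01 FPKM is listed in a file, and unlisted genes were taken as 0. Estimated counts split reads between near copies: 23 to 31 of the listed members per library had counts that were not whole.

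Expected counts were rounded, filtered with filterByExpr (5561 genes removed, 12390 tested), scaled by TMM (mean factor 0.969 with Pam3CSK4 and 1.032 with DA) and tested with edgeR 4.0.16 in R 4.3.3 by the quasi-likelihood test, with Benjamini-Hochberg adjustment over all 12390 genes and a threshold of 0.05. The biological coefficient of variation was 0.056. CPM are counts per 1e+06 of the library size after TMM scaling. The SE is the log2 fold change divided by the root of the F statistic. The members and lists were chosen with earlier results of these data known. Named genes were all tested members of at least 5 CPM on average, up to 2 higher and 2 lower genes with the smallest adjusted p per list, and Slbp, Npat, H2afz, H2afx, H3f3a, H3f3b, H1f0, Mki67, Pcna and Ccne1. Members were linked where at least 75% of the 50-base words of the smaller were shared, and 49 families resulted. Alternatives used DESeq2 1.42.0, limma 3.58.1, other filters and factors, and each library left out. All 57 members were found in GENCODE vM21 by symbol.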

Additional observations from a re-analysis of the deposited data

How the results depend on the processing

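The count of higher members was 8 of 13 tested and lay between 6 and 11 under the other settings, each within 1.5 times. The shares differed more: 6 of 7 with a mean of at least 50 counts, and without a filter 11 of 55 in edgeR and 11 of 57 in limma. All genes gave 3618 of 10120, 3776 of 17874 and 4713 of 17951. Hist1h3c and Hist1h4k, at 0 in all Pam3CSK4 libraries, joined the calls without a filter. Hist2h3c1, also at 0 there, joined in edgeR without a filter and in some fits without 1 library. Hist1h1c, Hist1h2bc, Hist2h2aa1, Hist2h2be, Hist2h3c2 and Hist3h2a were called higher in each setting run on single genes. With copies summed, an alternative chosen after seeing the data, 7 of 10 tested families were higher. In the main fit 32.6% of all tested genes were higher. These 7 include the family of Hist1h2bq and Hist1h2br, which had to differ, with 4, 7 and 5 counts against 52, 36 and 57. The 1 lower call, Hist2h2aa2, was fragile. The lower count was 0 with DESeq2's size factors or upper-quartile factors in edgeR (1 at an unadjusted p under 0.05 in each), with DESeq2's Wald test (0), with limma on log2(FPKM + 1) and log2(FPKM + 0.1) (0 in each), with limma without a filter (1, Hist1h4d), with edgeR without a filter (1), with a mean of at least 50 counts (0) and with copies summed (0). Leaving out 1 library gave 8 to 10 higher and 0 to 1 lower; 0 followed without Pam3CSK4 replicate 1 or DA replicate 2 or 3 (0 unadjusted in each). The replicate block gave 8 higher and 1 lower, and moved all genes from 4043 and 3938 to 4223 and 4111. Same-numbered libraries deviated together only weakly (correlations 0.10, -0.03 and 0.04), so the numbers were not taken as pairs, and not every library correlated best with its own number. The limma fits with a filter and the mean of at least 50 counts give no value for members they remove. With at most 10 counts in every library for 41 members, the low counts limit what can be said of most of the family. Why these counts were low was not tested, and the cause of the lost lower call was not tested beyond the values above.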

Other observations

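Among the members that did not pass the filter, the H2A gene Hist1h2ae, the H2B gene Hist1h2be and Hist1h2al were listed in all 6 libraries. Hist1h2al is annotated as a processed pseudogene at chr13:51202727-51203065 on the minus strand (GRCm38), and had 2.23, 2.22 and 5.58 counts with Pam3CSK4 and 2.49, 9.40 and 9.56 with DA. Hist1h2ae had 6.79, 5.82 and 5.11 counts with Pam3CSK4 and 6.00, 7.17 and 11.4 with DA. Hist1h2be had 5.83, 4.31 and 12.9 counts against 3.66, 6.19 and 3.59, and the groups overlapped for all 3. The H3 gene Hist1h3c was at 0 in the 3 Pam3CSK4 libraries and had 2.03, 2.00 and 1.84 counts with DA. The H4 gene Hist1h4k was likewise at 0 in the 3 Pam3CSK4 libraries, with 1.81, 1.84 and 1.72 counts with DA. The H4 gene Hist1h4d leaned the other way, with 1.87, 2.97 and 1.16 counts with Pam3CSK4 and 0, 0 and 1.37 with DA. These genes were chosen after their values were seen, and no fold is given because both groups lie near or at a floor of a few reads.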
